A study of Mus musculus with 2 samples.

Results

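Fas is a death receptor of the TNF receptor family, and the *lpr* mice studied here carry a mutation in its gene. The 8 genes described here are the receptor *Fas*, its ligand *Fasl*, the adaptor *Fadd*, the initiator caspase gene *Casp8*, its inhibitor *Cflar*, the survival gene *Bcl2*, the BH3-only gene *Bcl2l11* and the TRAIL receptor gene *Tnfrsf10b*. They were chosen by name from the 31053 genes of the files and not by a rule on measured values, though earlier results of these data were known. All 8 were found. The data are 2 single-cell RNA sequencing libraries of kidney cells, 1 from young and 1 from old MRL-*lpr* mice. The methods give young mice as 5 to 8 weeks old and old mice as over 16 weeks, the age at which this strain has spontaneous lupus-like disease. All cells of both libraries carry *lpr*, and no library without it was measured, so the effect of the mutation itself cannot be read from these values. Kidneys of several mice were pooled for each library, and the cells passed a Percoll gradient, a magnetic enrichment of innate lymphoid cells and a sort of live cells, so that shares of cells are not frequencies in the kidney. With 1 library per age, no difference has a replicate check, and age cannot be told apart from the library, its preparation or the mice in the pool.

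When Fas ligand on a lymphocyte engages Fas on another cell, Fas recruits FADD and caspase-8 into a complex that starts apoptosis, and the *Cflar* product FLIP blocks caspase-8 in that complex. A separate mitochondrial route is set by the balance of BCL2, which keeps cells alive, and BIM, the product of *Bcl2l11*, which removes cells when growth factors run short. Mice with *lpr* accumulate T cells that carry an αβ receptor but neither CD4 nor CD8 (double-negative, DN), a hallmark of the loss of Fas.

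The *lpr* mutation is known as the insertion of a retrotransposon in intron 2 of *Fas*, which disturbs splicing into exon 3 and leaves some normal transcript. In the GENCODE M21 annotation of GRCm38 (the mm10 assembly), *Fas* lies on chromosome 19, plus strand, from 34290666 to 34327772. Its full-length transcript Fas-201 has 9 exons and 327 codons, and intron 2 runs from 34307279 to 34315178, a length of 7900 bases. The same annotation holds a shorter transcript of the reference strain, Fas-202, with 3 exons and 63 codons, whose last exon (34309036 to 34309350) lies inside that intron. The sequences below, read from the GENCODE transcripts, show the point at which the annotated transcripts part. Lower case marks the last 60 bases of exon 2, which both share. Capitals mark coding bases that follow in exon 3, the first 60 of 138 in Fas-201 and all 5 in Fas-202.
Fas-201: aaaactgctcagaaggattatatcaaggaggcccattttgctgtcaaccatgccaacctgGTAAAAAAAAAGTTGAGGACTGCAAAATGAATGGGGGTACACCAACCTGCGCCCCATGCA
Fas-202: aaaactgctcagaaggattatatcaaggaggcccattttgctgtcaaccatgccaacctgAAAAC
In Fas-201 the exons after exon 2 hold 1248 bases, and in Fas-202 the last exon holds 315. The libraries read transcripts near their 3′ ends and the counts are summed per gene, so a *Fas* count here does not show whether exon 2 was joined to exon 3.

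The young library had 15076 barcodes with 156787812 unique molecular identifiers (UMIs), of which 11429 cells with a median of 7881 UMIs were kept. The old library had 12622 barcodes with 126334256 UMIs, of which 10232 cells with a median of 6933 UMIs were kept. Cells were assigned to a class by UMIs of its marker genes, none of which is among the 8 genes, and a class was used in a library where it held at least 50 cells. T-like cells numbered 475 young and 3859 old, ILC2-like cells 1425 and 326, and proximal tubule (PT)-like cells 6102 and 3436. In each class used, 3 to 6 of its own markers were among its 10 leading genes, and at most 1 was a marker of another class. The gate itself used these markers, so this describes the gate and is no separate check of the class names. The T-like subsets described were CD4 (111 young, 1114 old), CD8 (158 and 1112), γδ (51 and 66) and DN cells (104 and 1418). The γδ cells had a *Trdc* UMI and none of *Cd4*, *Cd8a* or *Cd8b1*, and DN cells had no UMI of these or of the other γδ genes. Left out of the subsets, but kept among T-like cells, were 8 young and 84 old cells with both *Cd4* and *Cd8* UMIs. The same holds for 43 and 65 cells with other γδ genes but no *Trdc*, *Cd4* or *Cd8* UMI. DN T-like cells by this rule were 21.9% of the T-like cells when young and 36.8% when old. A cell whose *Cd4* or *Cd8* RNA was missed also falls among them, and the share of such cells was not tested. Median UMIs were 3902 young and 3884 old in DN T-like cells. They were 4780 and 5187 in CD4 and 5000.5 and 5991 in CD8 T-like cells. *Foxp3*, a regulatory T cell gene, had a UMI in 10.6% of young DN, 13.5% of young CD4 and 1.90% of young CD8 T-like cells. The DN cells of the libraries were not alike. A UMI of *Eomes*, a transcription factor of effector T and NK cells, was found in 69.7% of old and 6.73% of young ones. In the clustering 75.2% of old DN T-like cells fell in cluster 22, which held 1500 old and 8 young cells, while 72.1% of young ones fell in cluster 5. The methods name female mice, yet cells with UMIs of Y-linked genes and no *Xist* were found in both libraries beside cells with *Xist*, so main ratios are also given for each kind of cell. The libraries shared 26 barcodes.

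Levels are UMIs of a gene summed over a class and divided by all UMIs of that class, scaled to 1000000 UMIs (CPM), with an exact Poisson 95% interval. Ratios are on the log2 scale with an exact binomial 95% interval. These intervals cover counting error only, and no p-value was computed. A gene counted as changed 2-fold where it had at least 100 UMIs over both sides and a log2 ratio of at least 1 in size.

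**Figure D1:**
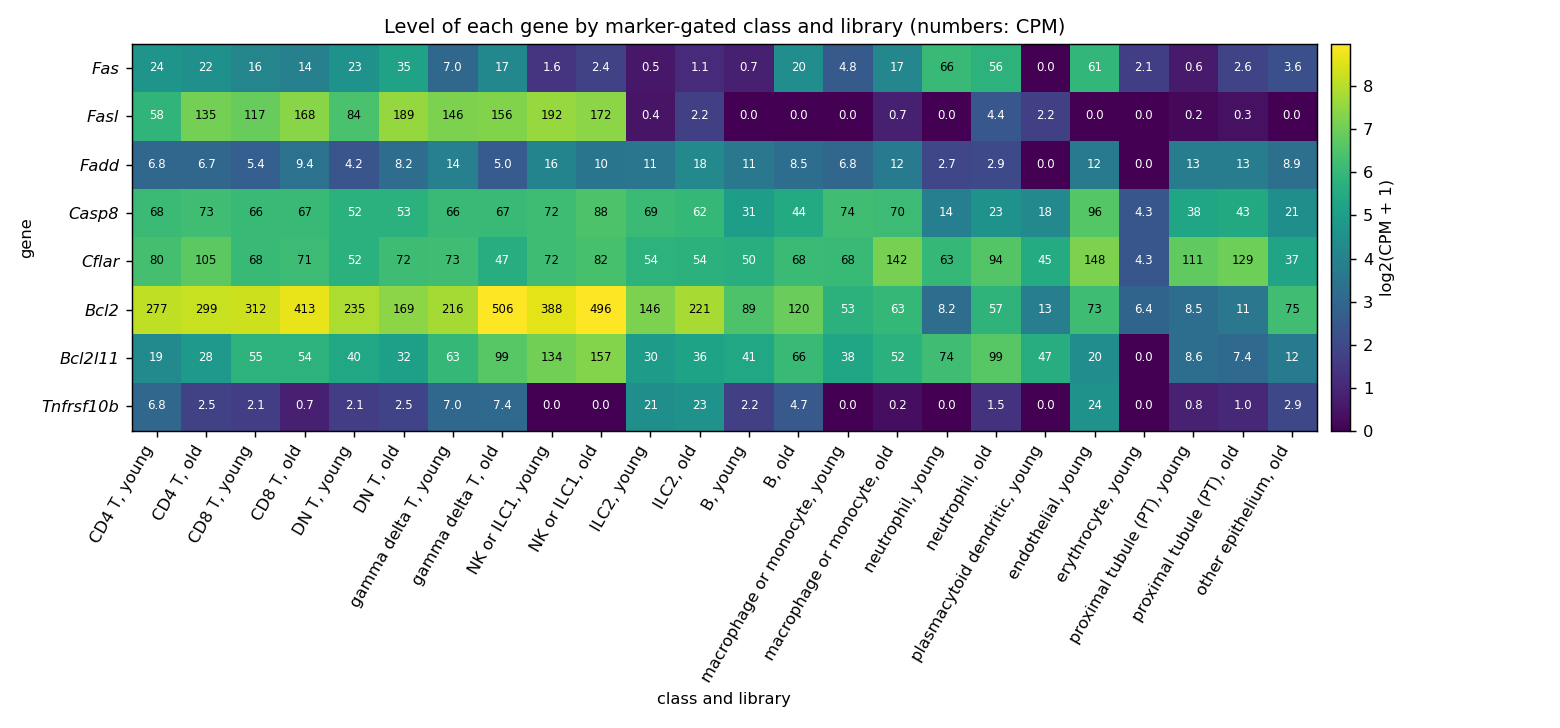
CPM of the 8 genes (rows) in each class with at least 50 cells, by library (columns), with colour on a log2(CPM + 1) scale and the CPM printed in each field. *Fasl* was confined to T-like and NK or ILC1-like cells above 5 CPM, while *Casp8* and *Cflar* were present in nearly all classes.

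*Fas*, the receptor, was highest in neutrophil-like and young endothelial-like cells. Its level was 65.8 CPM (42.2 to 97.9) in young and 55.6 CPM (39.3 to 76.3) in old neutrophil-like cells, and 60.6 CPM (48.5 to 74.7) in young endothelial-like cells. Among lymphocytes T-like cells had the highest value, though in the old library the B-like interval (12.3 to 30.5 CPM) overlapped theirs. The neutrophil-like and endothelial-like intervals overlapped, so their order in the young library is not settled, and the next class, CD4 T-like cells, lay below both with an interval that did not reach the endothelial one. Old endothelial-like cells were too few to use.

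*Fas* differed little with age in T-like cells. T-like cells stood at 21.2 CPM (15.95 to 27.7; 54 UMIs) when young and 22.4 CPM (20.5 to 24.4; 503 UMIs) when old, a log2 ratio of 0.08 (−0.33 to 0.51). CD4 T-like cells had 23.9 and 21.6 CPM, CD8 T-like cells 16.1 and 14.0 CPM, and DN T-like cells 23.1 CPM (11.5 to 41.3; 11 UMIs) and 35.0 CPM (30.6 to 39.96; 222 UMIs), each young value first. All of these young and old intervals overlapped, and the young DN value rested on 11 UMIs.

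Within the old library, DN T-like cells had more *Fas* than CD8 and CD4 T-like cells. The log2 ratio of DN over CD8 T-like cells was 1.32 (0.99 to 1.66), and over CD4 T-like cells it was 0.70 (0.39 to 1.01). The DN cells were shallower, with a median of 3884 UMIs against 5991 in CD8 T-like cells. After every cell was thinned to 1000 UMIs, 3.71% (2.78 to 4.84) of DN and 2.08% (1.32 to 3.099) of CD8 T-like cells had a *Fas* UMI, and these intervals overlapped. Thinned to 2000 UMIs the shares were 6.77% (5.47 to 8.27) and 3.13% (2.18 to 4.35), which did not overlap. The ratio was 1.35 (0.76 to 1.95) among cells with Y-linked UMIs and 1.58 (1.03 to 2.16) among cells with *Xist* UMIs. Within each of 3 T cell clusters DN T-like cells had the higher value than CD8 T-like cells, on few UMIs. In cluster 22 *Fas* was 38.2 CPM in DN, 37.5 CPM in CD4 (24 UMIs) and 26.7 CPM in CD8 T-like cells (20 UMIs), with intervals that overlapped. In cluster 5 of the same library these subsets had 26.9 CPM (25 UMIs), 24.2 CPM (91 UMIs) and 14.1 CPM (9 UMIs), and in cluster 15, where 79.3% of old CD8 T-like cells fell, 21.8 CPM (9 UMIs), 10.7 CPM (18 UMIs) and 13.7 CPM (76 UMIs). The DN and CD8 intervals overlapped in each of these clusters.

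ILC2-like and NK or ILC1-like cells, the innate lymphoid classes, had almost no *Fas*. ILC2-like cells had 4 UMIs among 1425 young cells (0.505 CPM, 0.138 to 1.29) and 2 UMIs among 326 old cells (1.11 CPM, 0.135 to 4.01), and after thinning no ILC2-like cell of either library had 1. NK or ILC1-like cells had 1 and 4 UMIs (1.56 and 2.41 CPM). The intervals of the ILC2-like level included that of PT-like cells of the same library, 0.566 CPM when young and 2.56 CPM when old. T-like cells exceeded ILC2-like cells by a log2 ratio of 5.39 (3.95 to 7.32; 54 and 4 UMIs) among young cells and 4.33 (2.47 to 7.38) among old cells.

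Outside the T cells, *Fas* was higher by 2-fold in old PT-like cells, and 2 further classes had a higher value on fewer than 100 UMIs, too few for the 2-fold rule. In PT-like cells, the epithelium that reabsorbs most of the filtrate, it went from 0.566 CPM (0.435 to 0.724) to 2.56 CPM (2.18 to 2.98), a log2 ratio of 2.18 (1.75 to 2.62), and 0.9997% of young and 4.54% of old cells had a UMI. The ratio was 2.21 (1.68 to 2.77) among cells with Y-linked and 2.11 (0.91 to 3.47) among cells with *Xist* UMIs. In this comparison *Fas* was the only 1 of the 7 members with enough UMIs that passed 2-fold, against 5.26% of all genes measured. The PT-like cells of the libraries fell partly in different clusters, with 11.4% and 25.4% of old ones in clusters 23 and 24, which held 6 and 8 young cells. In the 5 clusters with at least 50 PT-like cells of each library the old value was the higher one each time. It was clear of the young interval in cluster 3, at 0.732 CPM (0.351 to 1.35) young and 3.74 CPM (2.63 to 5.15) old, and in cluster 4, at 0.484 CPM (0.2501 to 0.846) and 2.798 CPM (1.98 to 3.84). In clusters 1, 2 and 9 the intervals overlapped, on 3, 7 and 4 old UMIs. Cluster 14, with 146 young PT-like cells and too few old ones to compare, had 2.39 CPM (1.27 to 4.08; 13 UMIs). Young PT-like cells of clusters 0 and 8 had 0 UMIs. *Havcr1*, a tubular injury marker, was 32.1 CPM in young cells of cluster 14. It went from 0.363 to 18.5 CPM in cluster 4 and from 3.66 to 6.06 CPM in cluster 3, and its part in the *Fas* ratio was not tested. Macrophage or monocyte-like cells had 4.79 CPM (7 UMIs) when young and 16.7 CPM (68 UMIs) when old, a log2 ratio of 1.81 (0.69 to 3.17). B-like cells had 1 UMI among 340 young cells and 21 UMIs among 159 old cells (19.9 CPM, 12.3 to 30.5), and the log2 ratio of 4.75 spans 2.12 to 10.12 because of the single young UMI. *Fasl*, which old T-like cells carried at 164 CPM, was at 0 UMIs in old B-like cells and 3 in old macrophage or monocyte-like cells. In PT-like cells it had 17 UMIs young and 22 old, a log2 ratio of 1.15 (0.17 to 2.15). The part of RNA from T cells in these values was not tested.

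**Figure D2:**
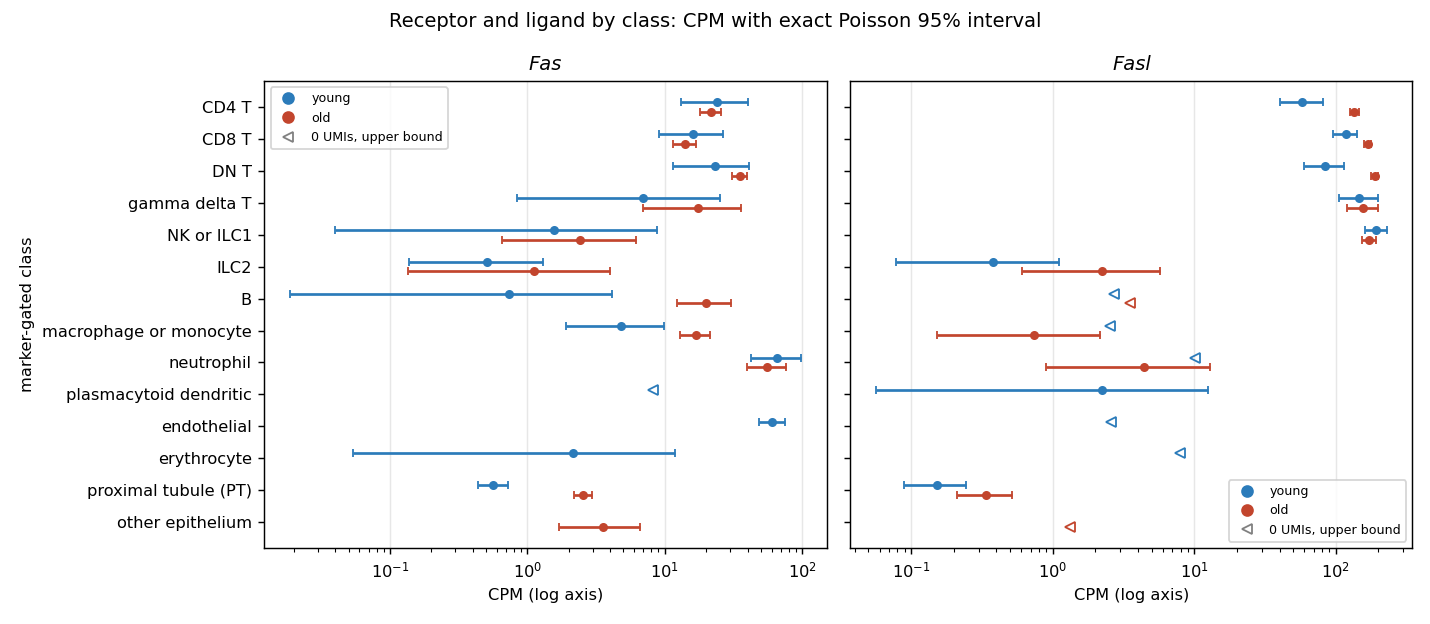
CPM of *Fas* (left) and *Fasl* (right) on a log axis in each class (rows), with exact Poisson 95% intervals, blue for young and red for old, and open triangles at the upper bound where a class had 0 UMIs. *Fas* lay near 60 CPM in neutrophil-like and endothelial-like cells and near 1 CPM in ILC2-like cells, while *Fasl* separated T-like and NK or ILC1-like cells from all other classes.

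*Fasl* encodes the ligand that cytotoxic lymphocytes use to engage Fas. It lies on chromosome 1, minus strand, from 161780689 to 161788495. In the young library its level was 192 CPM (160 to 229) in NK or ILC1-like, 146 CPM (106 to 198) in γδ T-like, 117 CPM (96.2 to 141) in CD8 T-like, 84.0 CPM (40 UMIs) in DN T-like and 58.1 CPM (40.2 to 81.2) in CD4 T-like cells, and each class overlapped its neighbour in that order. In the old library DN T-like cells had 189 CPM (178 to 200), NK or ILC1-like 172 CPM (152 to 193), CD8 T-like 168 CPM (159 to 177), γδ T-like 156 CPM (120 to 200) and CD4 T-like 135 CPM (127 to 145). There too neighbours overlapped, and DN T-like cells had the highest value.

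*Fasl* was higher in old than in young T-like cells, by less than 2-fold over all of them and by more in CD4 and DN T-like cells. Over all T-like cells it went from 107 CPM (94.2 to 120) to 164 CPM (158 to 169), a log2 ratio of 0.62 (0.44 to 0.80). The log2 ratio was 1.22 (0.73 to 1.76) in CD4, 1.17 (0.71 to 1.66) in DN and 0.52 (0.23 to 0.81) in CD8 T-like cells, while in NK or ILC1-like cells it was −0.16 (−0.47 to 0.15) and in γδ T-like cells 0.09 (−0.49 to 0.69). The share of cells with a *Fasl* UMI after thinning was 8.82% (4.11 to 16.1) in young and 17.8% (15.8 to 19.9) in old DN T-like cells, 6.31% (2.57 to 12.6) and 13.5% (11.6 to 15.7) in CD4 T-like cells, and 13.3% (8.42 to 19.6) and 16.8% (14.6 to 19.1) in CD8 T-like cells. These intervals overlapped in every subset. At 2000 UMIs they no longer did in DN T-like cells, at 15.2% (8.74 to 23.8) young and 31.3% (28.8 to 33.9) old, or in CD4 T-like cells, at 9.35% (4.57 to 16.5) and 24.0% (21.5 to 26.7), while in CD8 T-like cells, at 22.7% (16.4 to 30.2) and 32.6% (29.8 to 35.5), they still did. The log2 ratio in T-like cells was 0.75 (0.50 to 1.01) among cells with Y-linked UMIs and 0.90 (0.41 to 1.42) among cells with *Xist* UMIs. In old DN T-like cells the ratio over CD8 T-like cells was 0.17 (0.06 to 0.28), and its direction changed to −0.10 (−0.31 to 0.11) among cells with Y-linked UMIs.

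Within clusters the difference held for CD4 and not for CD8 T-like cells. In cluster 5 CD4 T-like cells had 41.8 CPM (25.2 to 65.3) young and 97.97 CPM (88.2 to 108.5) old, and DN T-like cells 46.3 CPM (25.9 to 76.4) and 73.0 CPM (56.7 to 92.6), which overlapped. CD8 T-like cells of cluster 15, with much *Fasl*, had 214 CPM (173 to 263) young and 196 CPM (185 to 208) old, and those of cluster 5, with little, 31.4 and 21.9 CPM. Cluster 15 held 55.7% of young and 79.3% of old CD8 T-like cells and cluster 5 held 34.8% and 6.38%. Young CD8 T-like cells also carried 155 CPM of *Trdc*, a γδ T cell gene, against 14.2 CPM in old ones. These UMIs came from few cells, 5.70% of young and 1.08% of old CD8 T-like cells, and their part in these ratios was not tested.

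Other classes had almost no *Fasl*. ILC2-like cells had 3 UMIs when young (0.379 CPM) and 4 when old (2.22 CPM), and T-like cells exceeded them by a log2 ratio of 8.14 (6.57 to 10.42) and 6.20 (4.85 to 8.08). *Cd3e*, a T cell gene, had a UMI in 2.11% and 2.45% of ILC2-like cells. B-like cells had no *Fasl* UMI among 340 young and 159 old cells. A floor of 3 counts puts the share of cells with a UMI at up to 0.882% and 1.89%, which limits detection and not expression, and PT-like cells had 0.153 and 0.339 CPM.

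**Figure D3:**
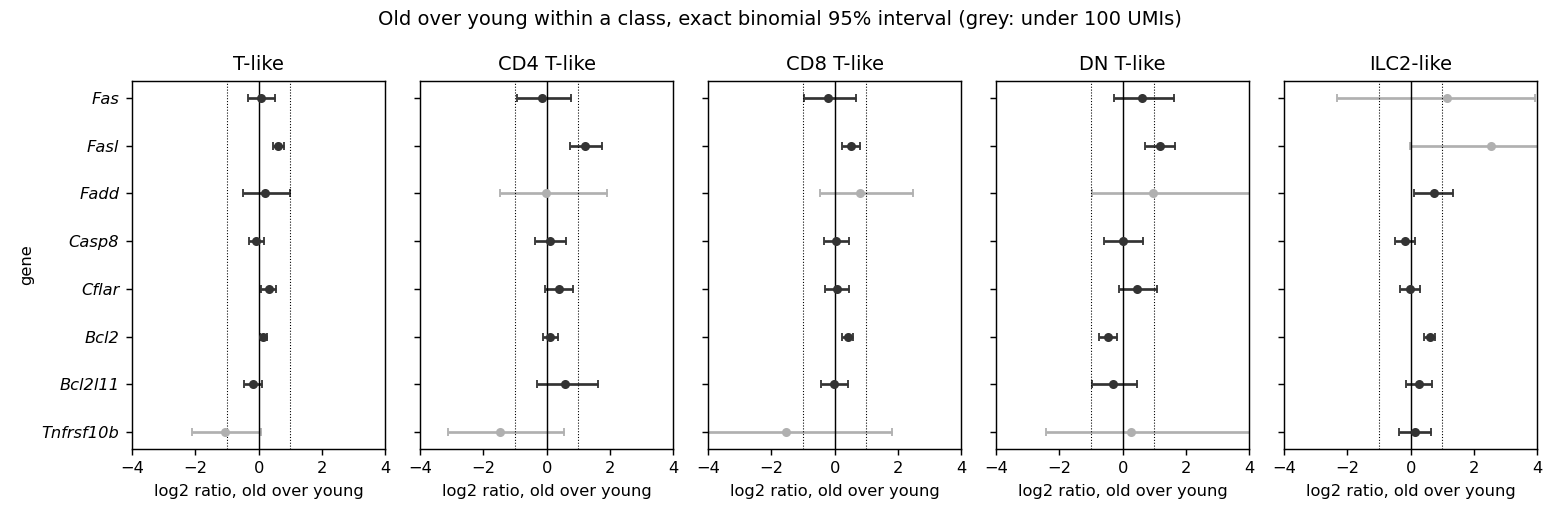
Log2 ratio of old over young (horizontal axis) for each of the 8 genes in T-like, CD4, CD8, DN T-like and ILC2-like cells, with exact binomial 95% intervals, grey where a gene had under 100 UMIs and dotted lines at 2-fold. Intervals that pass 4 in size run off the axis. *Fasl* in CD4 and DN T-like cells are the black points beyond 2-fold.

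Read over the 8 genes, few passed 2-fold with age. In T-like cells 0 of the 7 genes with at least 100 UMIs did, against 8.51% of all genes measured there. The count was 1 of 6 (*Fasl*) in CD4 T-like cells (8.19% of all genes), 0 of 6 in CD8 T-like cells (5.63%), 1 of 6 (*Fasl*) in DN T-like cells (16.5%) and 0 of 6 in ILC2-like cells (3.9%). The median log2 ratio of the genes with enough UMIs was 0.15 in T-like and 0.21 in ILC2-like cells, beside 0.03 and −0.04 over all genes. Between classes, T-like over ILC2-like cells, 2 of 7 passed in the young library (*Fasl* higher, *Tnfrsf10b* lower; 15.2% of all genes) and 3 of 7 in the old (*Fas* and *Fasl* higher, *Fadd* lower; 21.4%).

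*Fadd* encodes the adaptor between Fas and caspase-8 and lies on chromosome 7, minus strand, from 144577318 to 144582463. Its level was low in every class and did not stand out in T cells, with 7.08 CPM (4.19 to 11.2) among young T-like cells and 8.19 CPM (7.05 to 9.47) among old ones. ILC2-like cells had 10.6 CPM (8.46 to 13.1) and 17.8 CPM (12.2 to 25.1), a log2 ratio with age of 0.74 (0.11 to 1.35), and PT-like cells had 13.1 and 12.9 CPM. Among old cells, *Fadd* was lower in T-like than in ILC2-like cells, by a log2 ratio of −1.12 (−1.66 to −0.53), which rested on 32 ILC2-like UMIs. Split by sex-linked UMIs, the difference was −0.49 (−1.59 to 0.86) among cells with *Xist* UMIs, of which only 7 ILC2-like UMIs remained.

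*Casp8* and *Cflar*, the caspase and its inhibitor, are neighbours on the plus strand of chromosome 1, at 58795374 to 58847503 and 58711508 to 58758884. *Casp8* was close in T-like and ILC2-like cells. In old NK or ILC1-like cells its interval (74.3 to 103.5) lay above that of old T-like cells (62.0 to 68.7). It stood at 68.4 and 65.3 CPM in young and old T-like cells, 69.4 and 61.6 CPM in ILC2-like cells and 71.9 and 88.0 CPM in NK or ILC1-like cells, and no ratio with age in these classes had an interval clear of 0. Young endothelial-like cells had 96.0 CPM (80.7 to 114), and neutrophil-like cells, where *Fas* was highest, had 13.7 CPM (5 UMIs) and 23.4 CPM (16 UMIs). In the old library DN T-like cells had less *Casp8* than CD4 and CD8 T-like cells, with log2 ratios of −0.47 (−0.68 to −0.27) and −0.34 (−0.54 to −0.14).

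*Cflar* was highest in endothelial-like, PT-like and old macrophage or monocyte-like cells. Endothelial-like cells had 148 CPM (129 to 170) in the young library, and PT-like cells 111 CPM (109 to 113) and 129 CPM (126 to 132). Macrophage or monocyte-like cells went from 67.7 CPM (55.0 to 82.4) to 142 CPM (131 to 154), a log2 ratio of 1.07 (0.76 to 1.39), and *Cflar* was there the 1 gene of 4 with enough UMIs past 2-fold, against 6.65% of all genes. That ratio was 0.59 (0.25 to 0.93) where 1 more marker was asked of each cell. T-like cells stood at 66.4 and 82.7 CPM (log2 ratio 0.32, 0.09 to 0.55), with 105 CPM (96.9 to 113) in old CD4 T-like cells. Levels in ILC2-like cells were 54.4 and 53.9 CPM. In old DN T-like cells thinned to 1000 UMIs, 13.7% (9.65 to 18.6) of cells with a *Fasl* UMI also had a *Cflar* UMI, against 7.47% (6.01 to 9.14) of cells without. In old CD8 T-like cells the shares were 8.07% (4.58 to 12.95) and 7.59% (5.97 to 9.495), and in old CD4 T-like cells 18 of 150 cells (7.27% to 18.3%) and 9.80% (7.99 to 11.9), both with overlapping intervals. Over all old T-like cells, DN cells included, they were 11.7% (9.27 to 14.5) and 8.24% (7.31 to 9.24).

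*Bcl2*, the founding survival gene of its family, lies on chromosome 1, minus strand, from 106538178 to 106714274, and was highest in lymphocytes. Young NK or ILC1-like cells had 388 CPM (341 to 439) and old ones 496 CPM (463 to 531). T-like cells had 276 CPM (256 to 298) and 307 CPM (299.6 to 314), and ILC2-like cells 146 CPM (138 to 155) and 221 CPM (199.8 to 244). PT-like cells had 8.48 and 10.9 CPM. T-like cells exceeded ILC2-like cells by a log2 ratio of 0.92 (0.78 to 1.06) when young and 0.47 (0.33 to 0.62) when old.

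The T subsets differed in the direction of *Bcl2* with age. CD8 T-like cells went from 312 CPM (277 to 350) to 413 CPM (399 to 428), a log2 ratio of 0.41 (0.23 to 0.59), and CD4 T-like cells from 277 to 299 CPM (0.11, −0.12 to 0.35). In γδ T-like cells it rose from 216 CPM (62 UMIs) to 506 CPM (1.23, 0.81 to 1.66). DN T-like cells went the other way, from 235 CPM (194 to 283) to 169 CPM (159 to 179), a log2 ratio of −0.48 (−0.76 to −0.18). In ILC2-like cells the ratio was 0.60 (0.43 to 0.76) and in NK or ILC1-like cells 0.36 (0.15 to 0.57). Over all T-like cells the ratio was 0.15 (0.04 to 0.27), and it turned to −0.03 (−0.19 to 0.13) among cells with Y-linked UMIs and was 0.05 (−0.19 to 0.30) among cells with *Xist* UMIs. In ILC2-like cells those values were 0.26 (0.02 to 0.49) and 1.48 (1.15 to 1.79), and in CD8 T-like cells 0.01 (−0.21 to 0.25) and 0.13 (−0.31 to 0.60). In DN T-like cells they were −0.20 (−0.64 to 0.27) and −0.68 (−1.26 to −0.02), so the interval reached 0 among cells with Y-linked UMIs.

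In the old library DN T-like cells had the least *Bcl2* of the T subsets. Their ratio was −1.29 (−1.39 to −1.19) over CD8 and −0.82 (−0.93 to −0.72) over CD4 T-like cells, and in the young library it was −0.41 (−0.73 to −0.09) and −0.24 (−0.60 to 0.12). After thinning, 13.7% (11.95 to 15.6) of old DN and 29.3% (26.7 to 32.1) of old CD8 T-like cells had a *Bcl2* UMI. Over CD8 T-like cells the old ratio was −0.98 among cells with Y-linked UMIs and −1.55 among cells with *Xist* UMIs. Of the 7 genes with enough UMIs, *Fas* was higher and *Bcl2* lower by 2-fold in DN than in CD8 T-like cells of the old library, beside 11.6% of all genes, and 0 of 6 passed against CD4 T-like cells, beside 9.85%.

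Old T-like cells with an *Eomes* UMI had less *Bcl2* than those without, in DN, CD4 and CD8 T-like cells alike. The 988 old DN T-like cells with an *Eomes* UMI had 137 CPM (126 to 147) of *Bcl2*, and the 430 without had 269 CPM (244 to 296), close to the 254 CPM (208 to 307) of the 97 young DN T-like cells without. Among DN T-like cells without an *Eomes* UMI the log2 ratio of old over young was thus 0.08 (−0.23 to 0.41), and among CD8 T-like cells without one it was 0.67 (0.48 to 0.87). The log2 ratio of old cells with over without an *Eomes* UMI was −1.02 (−1.19 to −0.85) in CD4, −0.79 (−0.89 to −0.69) in CD8 and −0.98 (−1.16 to −0.80) in DN T-like cells. Cells with an *Eomes* UMI were deeper, with medians of 4154 against 3374 UMIs in old DN T-like cells. *Fas* was 38.0 CPM with and 25.9 CPM without in old DN T-like cells (0.56, 0.06 to 1.09), and *Fasl* 200.6 and 151 CPM (0.41, 0.20 to 0.62). *Fasl* was also higher with *Eomes* in old CD4 T-like cells (0.77, 0.58 to 0.97) but lower in old CD8 T-like cells (−0.27, −0.43 to −0.11). The split by *Eomes* was made after the levels had been seen.

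In old DN, CD4 and CD8 T-like cells alike, *Bcl2* was lower in cluster 22 than in cluster 5. Old DN T-like cells had 141 CPM (130 to 152) of *Bcl2* in cluster 22 and 336 CPM (300 to 376) in cluster 5, where young DN T-like cells had 256 CPM (204 to 318). CD8 T-like cells of cluster 5 had 608 CPM (526 to 700.2) young and 613 CPM (554 to 677) old, and those of cluster 15 had 196 CPM (156 to 242) and 457 CPM (439.8 to 476). In cluster 22 old CD8 T-like cells had 179 CPM (150.1 to 212) and old CD4 T-like cells 208 CPM (174 to 246), against 363 CPM (344 to 383) for CD4 T-like cells of cluster 5. Low *Bcl2* was not particular to cluster 22. In cluster 15 old DN T-like cells had 169 CPM (132 to 214) and old CD4 T-like cells 226 CPM (204 to 250). Both intervals overlapped those of the same subset in cluster 22, while the old CD8 interval of cluster 15 did not.

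**Figure D4:**
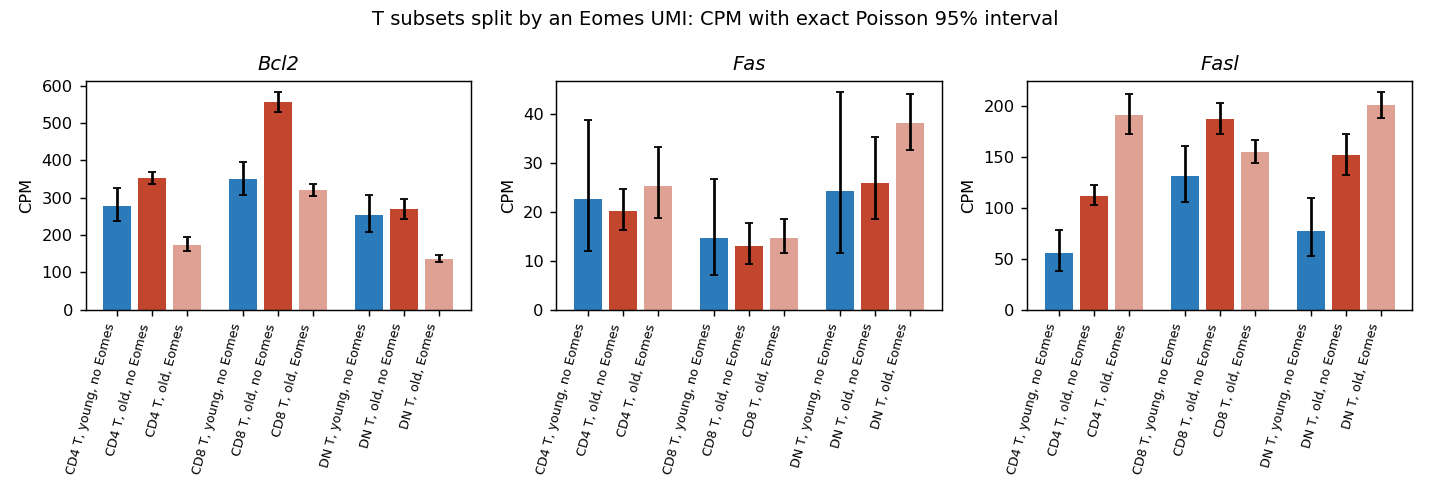
CPM of *Bcl2*, *Fas* and *Fasl* (vertical axes from 0) in CD4, CD8 and DN T-like cells without an *Eomes* UMI of the young (blue) and old library (red) and with an *Eomes* UMI of the old library (pale red), with exact Poisson 95% intervals. In each subset the old cells with *Eomes* had less *Bcl2* than the old cells without, and in DN T-like cells they reached 137 against 269 CPM.

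*Bcl2l11* encodes BIM, which promotes apoptosis and is bound by BCL2, and lies on chromosome 2, plus strand, from 128126038 to 128162547. NK or ILC1-like cells had the most, 134 CPM (108 to 166) when young and 157 CPM (139 to 178) when old, followed by neutrophil-like cells with 74.0 CPM (48.8 to 108) and 99.5 CPM (77.2 to 126). Levels were 45.2 and 39.9 CPM in T-like and 30.0 and 36.1 CPM in ILC2-like cells, and neither ratio with age had an interval clear of 0. In the old library DN T-like cells had less *Bcl2l11* than CD8 T-like cells (−0.75, −0.996 to −0.51), as with *Bcl2*, but not than CD4 T-like cells (0.20, −0.10 to 0.49). After thinning, a *Bcl2l11* UMI was found in 3.36% of old T-like cells with a *Bcl2* UMI and in 3.33% of those without.

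*Tnfrsf10b*, the only full death receptor for TRAIL in mice, lies on chromosome 14, plus strand, from 69767472 to 69784411, and had another distribution than *Fas*. ILC2-like cells, almost without *Fas*, had 21.1 CPM (18.0 to 24.5) when young and 23.3 CPM (16.8 to 31.5) when old, and 10.3% and 11.7% of them had a UMI. T-like cells had 3.93 CPM (10 UMIs) and 1.87 CPM (42 UMIs), below ILC2-like cells by log2 ratios of −2.42 (−3.51 to −1.51) and −3.64 (−4.29 to −2.99). NK or ILC1-like cells had no UMI in either library, with upper bounds of the Poisson interval at 5.76 CPM (young) and 2.22 CPM (old), neutrophil-like cells had 0 and 1 UMI, and young endothelial-like cells had 23.7 CPM (16.4 to 33.1). The endothelial-like class was thus the only class of the young library with over 20 CPM of both *Fas* and *Tnfrsf10b*.

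Other genes of death receptor and BCL2 pathways were read in groups, counting those with at least 100 UMIs over young and old T-like cells. Over all genes 8.51% passed 2-fold there. Of 6 receptors and ligands, 0 were higher and 1 was lower by 2-fold in the old library, *Tnfrsf25*, the receptor of TL1A, from 26.3 to 9.26 CPM (−1.51, −1.91 to −1.09). Of 9 genes of the complex and its inhibitors, 1 was higher, *Ptpn13*, a phosphatase that binds Fas, from 15.7 to 32.4 CPM (1.04, 0.58 to 1.54). Of 9 genes of the BCL2 family, *Pmaip1* (NOXA) went from 18.1 to 45.9 CPM (1.34, 0.92 to 1.80) and *Bik* from 18.1 to 5.17 CPM (−1.81, −2.31 to −1.28). The median log2 ratios of these groups were 0.16, 0.24 and 0.09.

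In DN T-like cells the BCL2 family held 6 genes with enough UMIs, of which *Pmaip1* was higher by 2-fold in the old library (1.75, 0.69 to 3.08; 7 young UMIs). None of the 3 receptors and ligands or the 9 genes of the complex passed 2-fold there, and over all genes 16.5% did. *Bak1*, a pore-forming member of the mitochondrial route, had 16.8 CPM (8 UMIs) young and 36.6 CPM old (1.12, 0.12 to 2.35). *Mki67*, a gene of dividing cells, was 4.20 CPM (2 UMIs) in young and 23.5 CPM in old DN T-like cells. It was 161 and 83.5 CPM in CD8 and 46.1 and 40.5 CPM in CD4 T-like cells, each young value first.

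Between T-like and ILC2-like cells these genes divided. ILC2-like cells had more *Ptpn13*, at 177 CPM (young) and 283 CPM (old) against 15.7 and 32.4 CPM in T-like cells, and more *Birc3*, an inhibitor of apoptosis, and *Tnfrsf25* in both libraries. T-like cells had more *Tnfrsf1b*, the TNF receptor of lymphocytes, *Bbc3* (PUMA) and *Bcl2a1b* in both, the last with 199 and 219 CPM against 7.95 and 11.1 CPM. *Bcl2a1a*, *Bcl2a1b* and *Bcl2a1d* are near-identical copies, so the count of any of them is uncertain. In the young library 1 of 5 receptors and ligands was higher and 1 lower in T-like cells, 2 of 9 genes of the complex were lower, and 2 of 6 genes of the BCL2 family were higher. In the old library 4 of 6 receptors and ligands were higher and 1 lower, 2 of 9 genes of the complex were lower, and 4 of 8 genes of the BCL2 family were higher and 1 lower. Over all genes 15.2% passed in either direction in the young and 21.4% in the old library.

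The genes with the pattern most like *Fasl* over 24 sums of a class in a library were *Cd247* (Pearson's r of log2(CPM + 1) 0.979), *Gm2682* (0.972), *Ifng* (0.969), *Sh2d1a* (0.968) and *Tnfrsf9* (0.966), out of 11772 genes with at least 500 UMIs. For *Bcl2* they were *Flt3l* (0.946), *Rab19* (0.925), *Clcf1* (0.913), *Nlrc3* (0.908) and *Pced1b* (0.902). The closest to *Fas* were less alike, *Tnfrsf23* (0.781), a decoy receptor for TRAIL, *Vamp5* (0.761), *Dck* (0.754), *Slc22a15* (0.752) and *Slfn1* (0.746). Among the 8 genes themselves r with *Fas* was between −0.03 and 0.31, while *Fasl* and *Bcl2* had an r of 0.758. The sums of a library share its depth and free RNA, and these values are a description.

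The libraries also differed in the makeup of their cells by sex-linked UMIs. T-like cells with Y-linked UMIs and no *Xist* numbered 253 young and 1258 old, and those with *Xist* and no Y-linked UMIs 74 and 1667. Among old DN T-like cells 344 had Y-linked and 749 *Xist* UMIs, and among old CD8 T-like cells 453 and 404. In young T-like cells *Bcl2* was 269 CPM (243 to 297) with Y-linked and 339 CPM (286 to 399) with *Xist* UMIs, intervals that overlapped. In old ones it was 263 CPM (252 to 274) and 350 CPM (339 to 362), so that both values with *Xist* were higher. Old CD8 T-like cells had 326 and 517 CPM, and old DN T-like cells 166 and 176 CPM with overlapping intervals. In ILC2-like cells *Bcl2* was lower with *Xist* when young (166 and 96.0 CPM) and higher when old (198 and 267 CPM). *Fasl* went from 98.3 to 165 CPM with Y-linked and from 82.4 to 153 CPM with *Xist* UMIs.

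**Figure D5:**
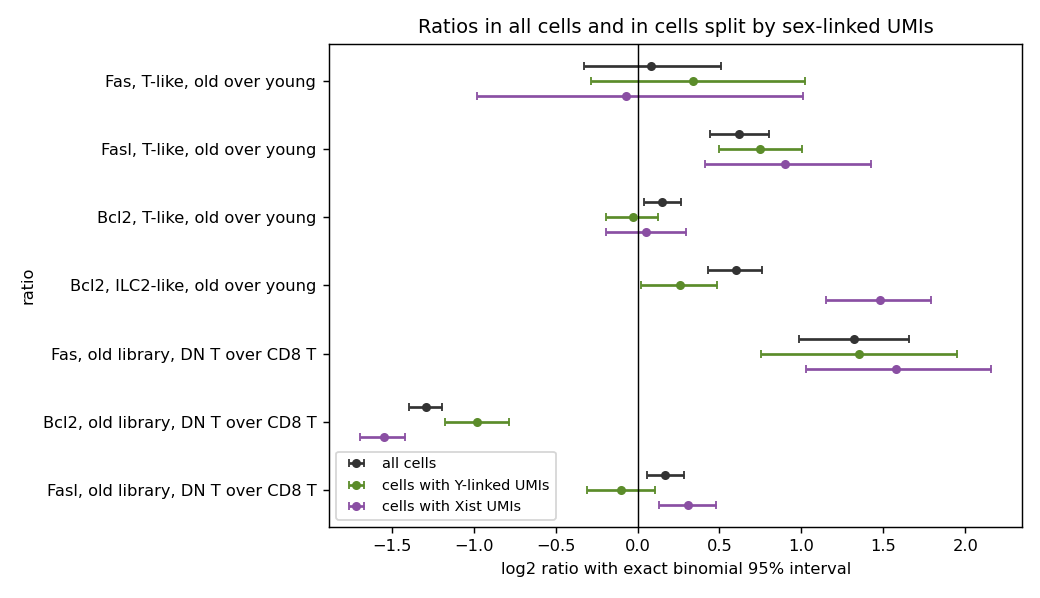
Log2 ratios (horizontal axis) with exact binomial 95% intervals for 7 contrasts (rows) in all cells (black), in cells with Y-linked UMIs (green) and in cells with *Xist* UMIs (purple). *Fas* in DN over CD8 T-like cells stayed between 1.32 and 1.58, while *Bcl2* with age in ILC2-like cells was 0.26 in cells with Y-linked and 1.48 in cells with *Xist* UMIs.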

How the data were processed

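Reads were mapped to mm10 and UMIs counted by the authors with Cell Ranger (version 3 in the submitters' processing notes, 3.1.0 in the file headers). The deposited matrices hold raw counts per gene and barcode, without normalization. The study's stated filter was applied, 200 genes or more per barcode and no more than 20% mitochondrial UMIs. Doublet calls by Scrublet (328 young, 246 old) stayed in the main values. A cell took a class when it had UMIs of at least 4 (T, ILC2, plasma, PT) or 3 (other classes) of the listed markers and met this for no other class, with T taken over NK where both were met. 679 young and 609 old cells met several classes, and 1472 and 953 met none. The gate was set after marker counts had been seen. Clustering took 2000 variable genes picked with Scanpy and then left out those among the genes described and the pathway lists. It used 10 principal components (NumPy), 20 neighbours (scikit-learn), a graph of shared neighbours and the Leiden method of igraph at resolution 0.8. This gave 25 clusters. Levels, shares (Clopper-Pearson intervals) and log2 ratios used Scanpy 1.11.5, SciPy 1.17.1, Python 3.11.15, pandas 2.3.3, NumPy 2.4.6 and Matplotlib 3.10.9. The ratio step was tested on simulated counts. Other genes were named by a rule: of lists of receptors and ligands, complex members and BCL2 family genes, those with at least 100 UMIs and a 2-fold ratio, and the 5 most alike in pattern. 1 item of these pathways is not reported here. Genes and lists were chosen with earlier results of these data known. *Slc34a1*, a PT gene, had a level of 144 CPM (young) and 56.4 CPM (old) among T-like cells of cluster 5, a sign of free RNA whose part in the values was not tested. PCR and capture losses are not covered by the intervals. The alternatives were other limits on mitochondrial UMIs and genes, removal of doublets, classes from clusters, 1 marker more, totals without abundant genes, equal weight for every cell, cells split by sex-linked UMIs and other thinning depths, with cells without *Eomes* UMIs added after the data were seen.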

Additional observations from a re-analysis of the deposited data

Results flagged for a closer look

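*Bcl2* had ratios with age of opposite sign in different lymphocytes. Its log2 ratio of old over young was −0.48 (−0.76 to −0.18) in DN T-like cells and 0.41 (0.23 to 0.59) in CD8 T-like, 0.60 (0.43 to 0.76) in ILC2-like and 0.36 (0.15 to 0.57) in NK or ILC1-like cells. With 1 library per age the difference between these ratios was not tested. Split by sex-linked UMIs, the intervals reached 0 in CD8 T-like cells with Y-linked UMIs (0.01, −0.21 to 0.25) and with *Xist* UMIs (0.13, −0.31 to 0.60), in DN T-like cells with Y-linked UMIs (−0.20, −0.64 to 0.27) and in NK or ILC1-like cells with Y-linked UMIs (0.20, −0.07 to 0.48). Without cells that had an *Eomes* UMI the ratio was 0.08 (−0.23 to 0.41) in DN and 0.67 (0.48 to 0.87) in CD8 T-like cells.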

How the results depend on the processing

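Limits on mitochondrial UMIs and genes, removal of doublets, 1 marker more and totals without abundant genes each left all 12 main ratios (8 genes with age in T-like cells, and *Fasl* and *Bcl2* of T-like over ILC2-like cells in both libraries) within their counting intervals. Equal weight for every cell gave 0.42 for *Fasl* with age in T-like cells, and classes from clusters gave 8.34 for *Fasl* of T-like over ILC2-like cells in the old library. Among cells with Y-linked UMIs, *Bcl2* with age in T-like cells turned to −0.03 and *Bcl2* of young T-like over ILC2-like cells was 0.70. Among cells with *Xist* UMIs, *Fasl* with age in T-like cells was 0.90, *Fadd* 2.12 on 1 young UMI, *Fasl* of old T-like over ILC2-like cells 4.64 and *Bcl2* of young T-like over ILC2-like cells 1.82. Of single ratios, *Fasl* of old DN over CD8 T-like cells turned to −0.10 with Y-linked UMIs, *Bcl2l11* with age turned to −0.01 in macrophage or monocyte-like and 0.09 in PT-like cells with *Xist* UMIs, and *Bcl2* with age in DN T-like cells turned to 0.08 without *Eomes* UMIs. Many more left their counting interval without a change of sign. Among cells with *Xist* UMIs 34 single ratios did so and 51 stayed within. Among cells with Y-linked UMIs these numbers were 11 and 77. Classes from clusters moved 5, 1 marker more moved 3, equal weight for every cell moved 2 and leaving out cells with *Eomes* UMIs moved 1. The causes of these changes were not tested. *Fasl* of T-like over ILC2-like cells could not be computed among young cells with *Xist* or old cells with Y-linked UMIs, since the ILC2-like cells then had 0 UMIs. No paired analysis was possible because each age had 1 library. Young T subsets of 104 to 158 cells limit what can be said of genes with few UMIs, *Fas*, *Fadd* and *Tnfrsf10b* above all, and shares of cells with a UMI rose with depth.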
